A study of Sus scrofa with 9 samples.

Results

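The miR-34 family in porcine granulosa cells (PGCs) was made up almost wholly of miR-34a, which did not pass the test at either dose of H2O2, while its rarer relatives moved in opposite directions at the higher dose. The 5p arms of miR-34b and miR-34c and the 3p arm of miR-34b fell in cells given 300 μM H2O2, and miR-449a, which carries the same seed, rose. The calls of miR-34b-5p and miR-449a held in all 21 alternatives tried, while miR-34c lost its call in 16 and the 3p arm of miR-34b in 12. The members were taken by name, as every entry of the deposited table called miR-34a, miR-34b, miR-34c or miR-449, with all arms and length variants. That gave 14 of the 1345 entries and 13 different sequences, of which 5 entries belong to miR-34a, 5 to the miR-34b/c cluster and 4 to miR-449. The set of genes and the contrast of miR-34a with the cluster were chosen by their measured levels, so the difference in level between them is given as a description, with no test.

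The cells were primary granulosa cells from ovaries of LandracexYorkshire crossbred sows, the follicle cells that surround and nourish the oocyte. The CON cells were cultured for 12 h with no H2O2, the LOS cells received 100 μM H2O2 for that time and the MOS cells 300 μM, and each group has 3 small-RNA libraries. H2O2 served as a model of oxidative stress, and the question was which miRNAs change with it. The labels describe a treatment medium with less serum than the growth medium, and whether CON cells received that medium is not stated. The labels and the study's methods also give different amounts of RNA input. No source ties the 3 libraries of a group to separate cultures or animals. The p-values below therefore set group differences only against the scatter among these libraries. How far they extend to other animals or cultures is not known.

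Members of this family share a seed, the stretch near the 5′ end with which a miRNA recognises its targets. In human and mouse cells the tumor suppressor p53 raises transcription of miR-34a, which has its own gene, and of miR-34b and miR-34c, which are cut from 1 shared transcript. The family represses genes of the cell cycle and of survival, and miR-34a has been tied to apoptosis of pig granulosa cells. The miR-449 genes lie elsewhere in the genome and are best known from multiciliated epithelium, where they act together with miR-34b and miR-34c. In the RefSeq gene table for Sscrofa11.1, 1 gene of the family was matched by symbol, MIR34C-1 on chromosome 9, between C9H11orf88 and LAYN and near BTG4, the gene next to the human miR-34b/c cluster. The build behind the deposited table was not given in the sources used here, so no coordinates are printed.

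The sequences below, as the deposited table gives them with T for U, show which members share a seed and how little separates miR-34b from miR-34c. Bases 2 to 8, the seed, are in capitals.
ssc-miR-34a: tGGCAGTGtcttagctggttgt
ssc-miR-34a_R-4: tGGCAGTGtcttagctgg
ssc-miR-34c: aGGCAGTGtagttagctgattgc
mmu-miR-34b-5p: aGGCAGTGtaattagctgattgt
hsa-miR-449a: tGGCAGTGtattgttagctggt
hsa-miR-449b-5p_R+3: aGGCAGTGtattgttagctggctgc
hsa-miR-34c-3p: aATCACTAaccacacggccagg
mmu-miR-34b-3p_1ss10CT: aATCACTAattccactgccatc

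In these names the prefix is the species whose miRBase entry was matched, L and R give bases lost or gained at the 5′ and 3′ ends, and 1ss marks 1 substitution. The seed GGCAGTG occurred in 10 entries of the whole table, of which 9 were members and the other was a predicted arm of the miR-34a hairpin. The seed ATCACTA of the 3p arms occurred in 2 entries, both members. Counting positions from 1 at the 5′ end, ssc-miR-34c and mmu-miR-34b-5p were identical at 21 of 23 bases (G11A and C23T), and ssc-miR-34c and mdo-miR-34b-5p at 22 of 23 (C23T). The authors' matching allowed 1 mismatch, so reads of the 5p arms of miR-34b and miR-34c may have been divided between these entries, and levels of the single 5p entries are uncertain to that extent. The 3p arms were better separated, with 16 of 22 bases identical (C10T, C11T, A12C, G16T, G21T and G22C). Compared position by position without gaps, ssc-miR-34a and hsa-miR-449a shared 15 of 22 bases, and the seed was among them. Stretches that they share at shifted positions were not aligned, so this count understates how alike they are.

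Values are normalized counts, the reads of an entry after the authors scaled the libraries against one another. They summed to 4967112 to 6098582 per library, and depth estimated from the smallest step between values was 7793727 to 16764959 reads, with MOS the lowest at 7793727 to 9321692. MOS libraries were less alike (Pearson r of log2 values 0.957 to 0.965) than CON (0.984 to 0.990) or LOS libraries (0.987 to 0.990). Of the 757 tested entries, 153 rose and 69 fell in MOS against CON, while leaving out the MOS3 library gave 152 rises and 131 falls among 687, so results that rest on MOS3 are given with and without it. With library totals made equal there were 200 rises and 32 falls, and that scaling moved the median log2 fold change of all entries in MOS against CON to 0.29, against 0.07 with the deposited values. Summed markers of granulosa and gonad, including miR-21 and miR-202, were 2277637 to 2844721 in CON and 2571304 to 2845901 in LOS, with 1762655 to 1966928 in MOS (6 of the 7 markers found). In these pooled cells, fewer cells of a type and less RNA per cell cannot be told apart.

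ssc-miR-34a was the member that carried the family. It stood at 48694, 53961 and 51503 normalized counts in CON, 56028, 49398 and 56249 in LOS and 50409, 47498 and 58451 in MOS. The 3 groups overlapped, and MOS held both the lowest and the highest library. It ranked 19 among the 1072 different value profiles of the table and made up 98.2 to 99.0% of the family in every library. The family as a whole took 0.828 to 1.17% of a library's normalized counts. By the mean over the 9 libraries ssc-miR-34c ranked 218, mmu-miR-34b-3p_1ss10CT 385, hsa-miR-449a 398, mmu-miR-34b-5p 441 and hsa-miR-34c-3p 458.

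**Figure D1:**
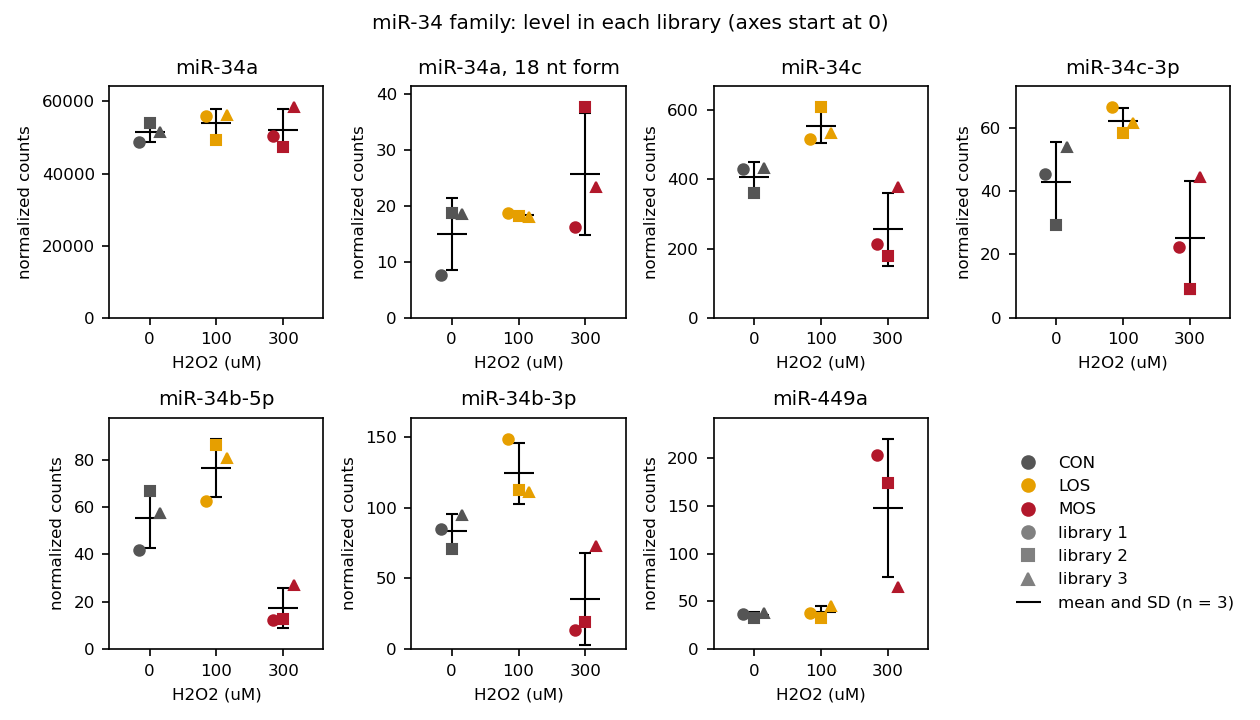
Normalized counts (y axes, each from 0) of the 7 tested sequences against H2O2 dose in μM (x axes), 1 point per library, with bars for mean and SD of 3 libraries. ssc-miR-34a overlapped between all doses, the 4 miR-34b/c arms were highest at 100 μM and lowest at 300 μM, and miR-449a was highest at 300 μM, where library 3 (65.6) lay well under the others.

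Of the 14 entries, 8 passed the filter on low values, which asked for 10 or more normalized counts in 3 or more libraries, and 6 did not. eca-miR-449a and hsa-miR-449a have the same sequence and the same values and were counted once, which leaves 7 tested sequences. They were tested with limma on log2 of the normalized count plus 1, in a fit over all 757 entries and all 9 libraries, with Benjamini-Hochberg adjustment over the 757 entries of a comparison. A sequence was called, here "rose" or "fell", at an adjusted p under 0.05. The comparisons of LOS and of MOS with CON share the CON libraries.

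At 300 μM H2O2 against CON, 4 of the 7 sequences were called. The 3 that fell were ssc-miR-34c, mmu-miR-34b-5p and mmu-miR-34b-3p_1ss10CT, and the 1 that rose was hsa-miR-449a. Across all tested entries 29.3% were called in this comparison, with 9.11% falling and 20.2% rising.

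The fall with the lowest adjusted p was that of mmu-miR-34b-5p, the arm of miR-34b with the family seed. It was at 41.7, 67.0 and 57.8 normalized counts in CON, 62.6, 86.5 and 80.7 in LOS and 12.5, 12.7 and 27.1 in MOS. All 3 MOS libraries lay below every other library. The mean was 17.4 ± 8.36 in MOS and 55.5 ± 12.8 in CON (SD, n = 3 each), a log2 fold change of -1.68 (SE 0.33, limma adjusted p = 0.00374). The call held in all 21 alternatives tried, with adjusted p of 0.000337 to 0.0207. At the estimated depth the MOS values stand for about 20, 20 and 50 reads, which is an upper estimate.

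mmu-miR-34b-3p_1ss10CT, the opposite arm of the same hairpin, was at 84.7, 70.5 and 94.8 normalized counts in CON, 149, 113 and 111 in LOS and 13.7, 19.1 and 72.6 in MOS. MOS1 and MOS2 were far below all CON libraries, whereas MOS3 lay just above the lowest of them, so MOS and CON overlapped. The log2 fold change of MOS against CON was -1.58 (SE 0.50, limma adjusted p = 0.0402). Without MOS3 it was -2.28 (limma adjusted p = 8.81e-05), and leaving out any 1 of the other 8 libraries ended the call. Over the alternatives the adjusted p was 8.81e-05 to 0.135, and 12 of 21 lost the call.

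ssc-miR-34c, the most abundant member after miR-34a, was at 429.7, 361 and 434 normalized counts in CON, 518, 609.6 and 535 in LOS and 212, 178 and 377 in MOS. MOS1 and MOS2 were below every CON library and MOS3 was within their range. The mean was 256 ± 106 in MOS and 408 ± 41.1 in CON (SD, n = 3 each), a log2 fold change of -0.74 (SE 0.25, limma adjusted p = 0.0477). The call stood at the edge of the threshold, with adjusted p of 0.000470 to 0.159 over the alternatives, and 16 of 21 lost it. Those included each single library left out other than MOS3, without which the log2 fold change was -1.06.

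hsa-miR-34c-3p, the arm opposite ssc-miR-34c, was at 45.5, 29.5 and 54.1 normalized counts in CON, 66.7, 58.5 and 61.7 in LOS and 22.4, 8.92 and 44.4 in MOS. MOS3 again lay among the CON libraries. In MOS against CON it did not pass (log2 fold change -0.96, SE 0.48, limma adjusted p = 0.166, range 0.0129 to 0.470 over the alternatives). It passed only without MOS3, at -1.49. Of the 4 tested arms of the miR-34b/c cluster, only mmu-miR-34b-5p had MOS and CON libraries that did not overlap, against 15.2% of all tested entries with MOS wholly below CON.

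hsa-miR-449a moved the other way. It was at 36.7, 32.6 and 38.4 normalized counts in CON, 37.7, 32.6 and 45.1 in LOS and 204, 174 and 65.6 in MOS. All 3 MOS libraries lay above every other library, and MOS3 was the lowest of them. The mean was 148 ± 72.9 in MOS and 35.9 ± 2.96 in CON (SD, n = 3 each), 4.13-fold higher in MOS, with a log2 fold change of 1.86 (SE 0.38, limma adjusted p = 0.00477). Among all tested entries 26.2% had MOS wholly above CON. The call held in all 21 alternatives, with adjusted p of 4.11e-05 to 0.0254, and without MOS3 the log2 fold change was 2.37.

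A second miR-449 sequence, hsa-miR-449b-5p_R+3, was seen mainly in the same libraries. It was listed at 56.1 and 31.0 normalized counts in MOS1 and MOS2 and at 0 in MOS3, at 3.80 in LOS3 and at 0 in the other LOS and all CON libraries. With values of at least 10 in only 2 libraries it was below the filter and was not tested. MOS1 and MOS2 were also the libraries with the highest hsa-miR-449a. The 3p arm, mml-miR-449a-3p_L+1R-1, was listed above 0 in LOS3 alone, at 3.80.

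Markers of epithelium other than the family itself moved with miR-449a in part. The summed normalized counts of 5 of 6 markers, miR-141, miR-429 and the miR-200 members, were 6.32 to 16.96 in CON and 138 to 187 in LOS, with 164 to 345 in MOS. miR-205, the remaining one, was not found in the deposited table. By this sum LOS libraries held more epithelial markers than any CON library, at hsa-miR-449a values of 32.6 to 45.1 that overlapped with CON. The sum pooled members that differed. hsa-miR-200c-3p averaged 4.50 in CON and 84.3 in LOS, and hsa-miR-141-3p_R+1 7.48 and 74.0. mmu-miR-200b-3p_R+1, like hsa-miR-449a, was higher only in MOS, with a mean of 22.1 there and 0 in CON and LOS. The markers fixed for multiciliated epithelium were miR-449 and miR-34b/c, so no marker of those cells independent of the family was measured. Red blood cell markers summed to 251 to 323 in CON and 254 to 285 in LOS, with 294 to 775 in MOS. The part of other cell types in the miR-449a result was not tested.

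ssc-miR-34a itself was 52119 ± 5673 in MOS and 51386 ± 2635 in CON (SD, n = 3 each), a log2 fold change of 0.02 with a 95% interval of -0.22 to 0.25 (limma adjusted p = 0.939). The sign of this small difference depended on the scaling. It was -0.02 with median-of-ratios factors and 0.23 with equal library totals, where the median entry stood at 0.29. No alternative called it.

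**Figure D2:**
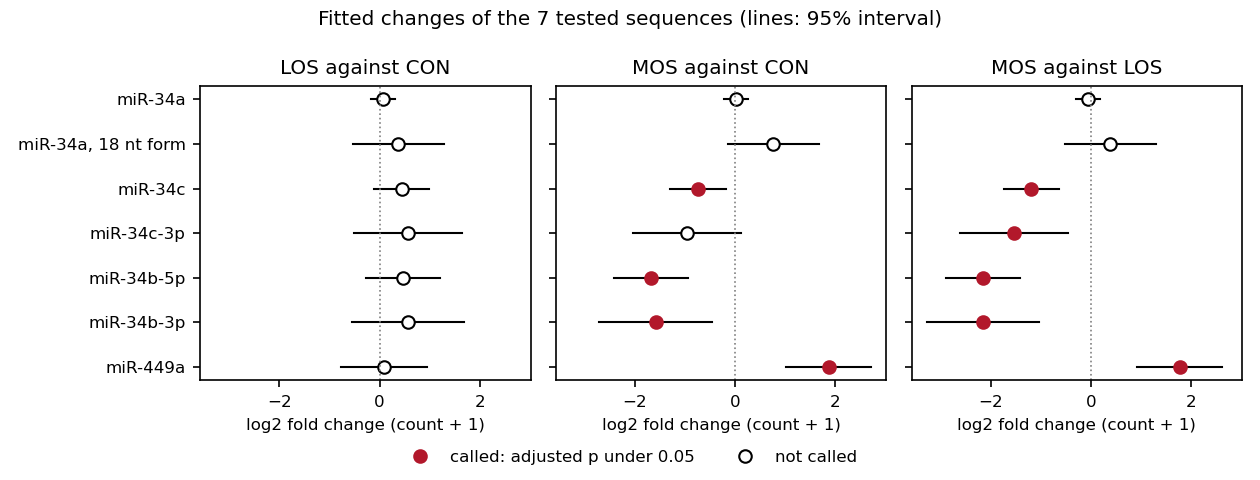
Log2 fold change (x axis, fitted on normalized count + 1) of each tested sequence with its 95% interval, in 1 panel for each pair of groups, with filled points for adjusted p under 0.05 in limma. No point is filled in LOS against CON, 4 are filled in MOS against CON and 5 in MOS against LOS, while ssc-miR-34a sits near 0 with a narrow interval in all 3 panels.

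The lower dose left the family without a called member. At 100 μM H2O2 against CON, 0 of the 7 sequences passed limma, 0 had an unadjusted p under 0.05 (2 in a fit to the 6 libraries alone), and 0 passed with voom. With limma, 2.91% of all tested entries were called in this comparison, 2.51% rising and 0.396% falling. The 4 arms of miR-34b/c all had higher means in LOS than in CON, with fitted log2 fold changes of 0.44 for ssc-miR-34c, 0.56 for hsa-miR-34c-3p, 0.47 for mmu-miR-34b-5p and 0.57 for mmu-miR-34b-3p_1ss10CT (limma adjusted p of 0.706, 0.935, 0.934 and 0.935). For 3 of these arms, all but mmu-miR-34b-5p, every LOS library lay above every CON library, against 12.4% of all tested entries.

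ssc-miR-34c averaged 554 ± 48.6 normalized counts in LOS and 408 ± 41.1 in CON (SD, n = 3 each), 1.36-fold higher in LOS. The 95% interval of its log2 fold change, -0.11 to 0.996, included 0. All 3 groups enter the spread that the fit gives an entry, and the MOS libraries of this miRNA were the most scattered. Without MOS3 the adjusted p was 0.0885 in limma, and it was not called in any alternative. hsa-miR-449a differed by 0.09 between LOS and CON (SE 0.38, limma adjusted p = 1.0), and ssc-miR-34a by 0.07 with a 95% interval of -0.17 to 0.30 (limma adjusted p = 0.964).

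Set against the lower dose, the higher dose held less of the whole miR-34b/c cluster. In MOS against LOS, 5 of the 7 sequences were called, all 4 miR-34b/c arms lower and hsa-miR-449a higher in MOS, against 29.7% of all tested entries called, 10.8% lower and 18.9% higher. For each of these 5 the 3 MOS libraries did not overlap with the 3 LOS libraries, with MOS wholly below LOS in 16.5% of all tested entries and wholly above in 24.6%. mmu-miR-34b-5p was at 17.4 ± 8.36 in MOS and 76.6 ± 12.5 in LOS (SD, n = 3 each), 4.39-fold lower, with a log2 fold change of -2.15 (SE 0.33, limma adjusted p = 0.00124). For mmu-miR-34b-3p_1ss10CT it was also -2.15 (SE 0.50, limma adjusted p = 0.0106). For ssc-miR-34c the value was -1.19 (SE 0.25, limma adjusted p = 0.00597) and for hsa-miR-449a 1.77 (SE 0.38, limma adjusted p = 0.00703).

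Those 4 calls held in all 21 alternatives. Without MOS3 the log2 fold changes were -2.50 for mmu-miR-34b-5p, -2.85 for mmu-miR-34b-3p_1ss10CT, -1.50 for ssc-miR-34c, -2.05 for hsa-miR-34c-3p and 2.28 for hsa-miR-449a. hsa-miR-34c-3p, at -1.53 (SE 0.48, limma adjusted p = 0.0382), lost its call in 11 of 21, among them the 7 that left out 1 library other than CON2 or MOS3, and its adjusted p was 0.00281 to 0.111. ssc-miR-34a differed by -0.05 between MOS and LOS (limma adjusted p = 0.762).

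Markers of other cell types moved in part with the cluster. Summed muscle markers, 3 of 4 found, were 1677 to 1720 in CON and 1682 to 1989 in LOS, with 976 to 1565 in MOS, so that MOS was the lowest group, as for the cluster. Summed leukocyte markers, 4 of 4 found, were 17128 to 18521 in CON and 19978 to 23490 in LOS, with 13069 to 20512 in MOS. All LOS libraries were above all CON libraries, as for 3 of the 4 arms, and MOS overlapped with both. Summed stroma and theca markers were 363181 to 399643 in CON and 352571 to 376849 in LOS, with 235709 to 420438 in MOS. Endothelial markers summed to 3169 to 3564 in CON and 3102 to 3347 in LOS, with 2377 to 3545 in MOS. For stroma and endothelium the groups thus overlapped. In the cluster MOS and CON also overlapped for every arm but mmu-miR-34b-5p, while MOS lay wholly below LOS for all 4 arms. In none of these lists was a sequence at 0 in all libraries, and the part of these cells in the result was not tested.

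The balance between miR-34a and the miR-34b/c cluster was then read within each library, where the scaling between libraries does not enter. The ratio of ssc-miR-34a to the summed 5p arms of miR-34b and miR-34c was 103, 125 and 104 in CON, 96.3, 70.7 and 90.9 in LOS and 224, 247 and 144 in MOS. Every MOS library was above every CON and LOS library, and every LOS library was below every CON library. The mean log2 ratio differed by 0.86 in MOS against CON, by 1.23 in MOS against LOS and by -0.37 in LOS against CON, each with a two-sided exact permutation p of 0.1 (n = 3 each). That is the smallest p that 3 against 3 libraries allow, so this test cannot reach 0.05, and over the 12 ratio comparisons made the adjusted value was 0.2. Leaving out single libraries gave 0.71 to 1.09, 1.08 to 1.46 and -0.46 to -0.23.

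As shares of the family, the cluster held 0.973 to 1.23% in CON and 1.38 to 1.73% in LOS, with 0.457 to 0.882% in MOS. miR-449 held 0.0597 to 0.0743% in CON and 0.0649 to 0.0922% in LOS, with 0.111 to 0.510% in MOS. The MOS libraries were thus the lowest for the cluster and the highest for miR-449. In MOS1 the ratio of hsa-miR-449a to the 5p arms of the cluster was 0.908, and it was 0.912 in MOS2 and 0.162 in MOS3, against 0.0756 to 0.0776 in CON and 0.0468 to 0.0730 in LOS. The summed level of all members with the seed GGCAGTG stayed with miR-34a, at 49212 to 54446 in CON and 50149 to 56935 in LOS, with 47936 to 58946 in MOS, and the groups overlapped.

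**Figure D3:**
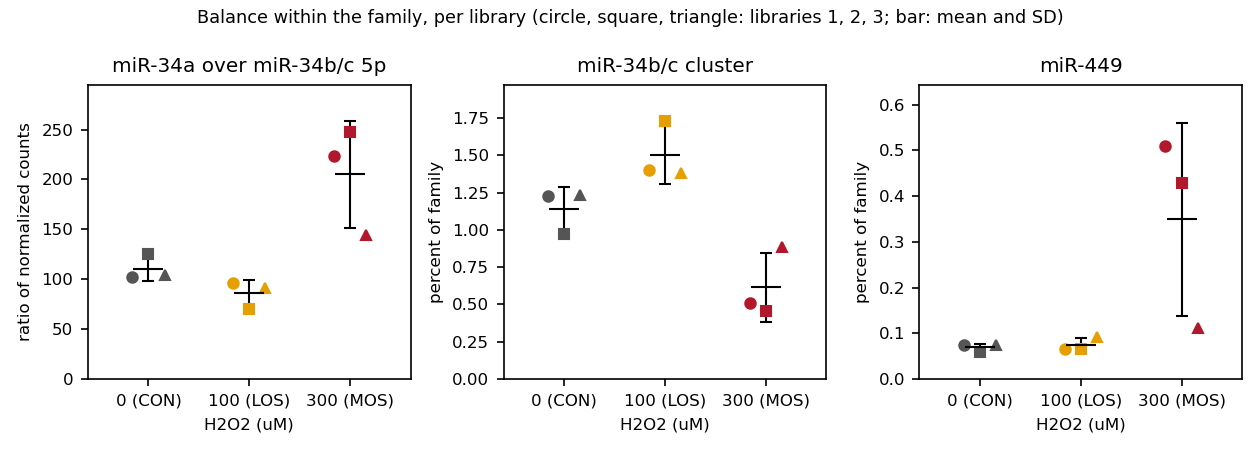
Ratio of ssc-miR-34a to the 5p arms of miR-34b/c (left), share of the miR-34b/c cluster in the family (middle, percent) and share of miR-449 in the family (right, percent) against H2O2 dose in μM, 1 point per library with mean and SD of 3. The MOS libraries had the highest ratios (144 to 247), the lowest cluster shares (0.457 to 0.882%) and the highest miR-449 shares (0.111 to 0.510%), with library 3 nearest to CON each time.

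Both arms of the miR-34b and miR-34c hairpins were measured in every library, so the balance of their arms could be followed as well. The ratio of the 3p to the 5p arm of miR-34b was 1.05 to 2.03 in CON and 1.30 to 2.38 in LOS, with 1.1 to 2.68 in MOS. For miR-34c the ratio of the 5p to the 3p arm was 8.02 to 12.2 in CON and 7.78 to 10.4 in LOS, with 8.49 to 20 in MOS. The ranges overlapped at every dose for both hairpins, with two-sided exact permutation p of 0.6 to 1.0 (n = 3 each). The 3p arm was thus the more abundant one for miR-34b in every library, and the 5p arm for miR-34c.

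Length variants of miR-34a were rare beside the full form of 22 nt. ssc-miR-34a_R-4, 18 nt long and cut at the 3′ end, was at 7.58, 18.8 and 18.5 normalized counts in CON, 18.7, 18.2 and 18.03 in LOS and 16.2, 37.6 and 23.3 in MOS. CON1 was the lowest and MOS2 the highest, and the groups overlapped. It did not pass in LOS against CON (log2 fold change 0.38, SE 0.40, limma adjusted p = 0.955), in MOS against CON (0.76, SE 0.40, limma adjusted p = 0.187) or in MOS against LOS (0.39, SE 0.40, limma adjusted p = 0.518). The table lists the same sequence with the same values a second time as a predicted arm, ssc-mir-34a-p5, which is not a member.

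The other 3 miR-34a forms were below the filter. ssc-miR-34a_L-3, which lacks the first 3 bases and so carries the seed AGTGTCT, was at 0 to 5.36 in CON and 2.72 to 3.80 in LOS, with 4.99 to 16.8 in MOS. ssc-miR-34a_L-1R-1, with the seed GCAGTGT, was listed at 0 in 6 libraries and at 5.36 at most. ssc-miR-34a_R-3_1ss19TA was at 0 to 5.44. The opossum-named form mdo-miR-34b-5p, 1 base from ssc-miR-34c, was at 2.26 to 3.13 in CON, 0 to 2.12 in LOS and at 0 in all MOS libraries. Other predicted arms of the miR-34a hairpin, which are not members, were listed at 0 in CON, at 0 to 3.80 in LOS and at 5.96 to 8.10 in MOS. Their sequences appeared under both p5 and p3 names, so the names do not tell which arm they come from.

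**Figure D4:**
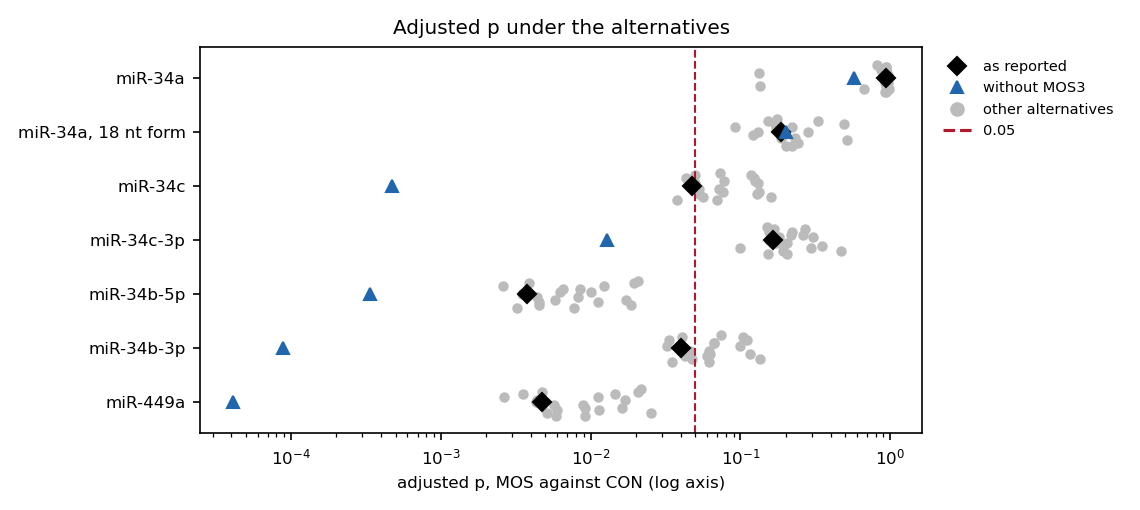
Adjusted p of MOS against CON (x axis, log scale) for each tested sequence, as reported (black), without the MOS3 library (blue) and under the other alternatives (grey), with the threshold of 0.05 as a dashed line. All points of mmu-miR-34b-5p and hsa-miR-449a lie left of the line, those of ssc-miR-34a and its 18 nt form right of it, and those of ssc-miR-34c, hsa-miR-34c-3p and mmu-miR-34b-3p_1ss10CT on both sides.

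Because p53 acts on this family in human and mouse cells, other miRNAs tied to p53 there were read beside it. Of 27 tested sequences whose transcription or processing p53 raises, 6 rose in LOS against CON and 0 fell with limma (1 lower at an unadjusted p under 0.05, 0 with voom), where 2.51% of all tested entries rose and 0.396% fell. In MOS against CON 8 rose and 4 fell, where 20.2% of all entries rose and 9.11% fell. The falls were 2 with voom or equal totals, where 24 of 757 and 32 of 764 entries fell. They were 6 without MOS3, where 131 of 687 entries fell. In MOS against LOS 3 rose and 3 fell, where 18.9% of all entries rose and 10.8% fell. In voom 4 rose and 2 fell, where 224 and 44 of 757 entries did. At equal totals it was 5 and 2, where 230 and 44 of 764 entries rose and fell. Without MOS3 it was 4 and 8, where 135 of 687 entries rose and 135 fell. The median log2 fold change of the list was -0.03 in LOS against CON, where the median of all tested entries was 0.00, and 0.01 in MOS against CON, where it was 0.07.

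ssc-miR-192, a p53 target that shares its seed with miR-215, averaged 142 normalized counts in CON and 438 in LOS, with 648 in MOS, and its log2 fold changes over CON were 1.62 in LOS and 2.15 in MOS (limma adjusted p of 0.00162 and 3.79e-05). ssc-miR-215_R+1 rose by 3.95 in LOS (limma adjusted p = 0.000125), and ssc-miR-194a_R+2 and ssc-miR-194b-5p_1ss10GA, of a miRNA made from the same transcripts, by 1.43 and 1.84. In MOS against CON cgr-miR-22-3p rose by 0.48, while ssc-miR-145-5p_R-1 and ssc-miR-145-3p, the arms of a miRNA abundant in smooth muscle, had log2 fold changes of -0.79 and -1.06. The remaining rises of the list in LOS against CON were miR-200c and miR-141, which it shares with the epithelial markers. It shares miR-143 and miR-145 with the markers of stroma. At 100 μM, where miR-192 and miR-215 rose, no miR-34 member was called. The activity of p53 was not measured here, and its part in any of these results was not tested.

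Of 12 tested sequences of the miR-17-92 cluster, which p53 represses in human cells, 0 were called in LOS against CON by limma or by voom, and 0 had an unadjusted p under 0.05. In MOS against CON 3 fell and 0 rose, with 0 higher at an unadjusted p under 0.05 in limma, where 9.11% of all tested entries fell, and the list median was -0.32, with 0.07 over all entries. There 1 fell and 0 rose with voom or equal totals, where 24 of 757 and 32 of 764 entries fell. Without MOS3, 3 fell and 3 rose, where 131 of 687 entries fell and 152 rose. The 3 that fell in the reported fit were ssc-miR-19b (-1.07), ssc-miR-19a (-0.91) and mmu-miR-20a-3p_R+1_1ss10CT (-0.68). In MOS against LOS 5 fell and 0 rose with limma (0 higher at an unadjusted p under 0.05), where 10.8% of all entries fell, and the list median was -0.43, with 0.08 over all. There 3 fell and 0 rose with voom or equal totals, where 44 of 757 and 44 of 764 entries fell. Without MOS3, 5 fell and 2 rose, where 135 of 687 entries fell and 135 rose.

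Finally, the entries whose values most resembled each member over the 9 libraries were listed by Pearson correlation of log2 values, as a description, since the libraries share their groups. Closest to ssc-miR-34a were hsa-miR-188-5p_R+1 (r = 0.916), bta-miR-1277_R-1 (0.846), bta-miR-543 (0.828), hsa-miR-127-5p_R+1 (0.815) and ssc-miR-218b_R-1 (0.815). ssc-miR-34c was closest to ssc-miR-335_R+1 (0.961), ssc-miR-23b_R+1 (0.960) and ssc-miR-30c-5p_R+1 (0.957). hsa-miR-34c-3p was closest to hsa-let-7a-2-3p (0.944), and ssc-miR-23b_R+1 was again in its list (0.936) and in that of mmu-miR-34b-3p_1ss10CT (0.956). mmu-miR-34b-5p was closest to ssc-mir-1277-p5 (0.972) and hsa-miR-590-3p (0.967), and mmu-miR-34b-3p_1ss10CT to ssc-miR-142-3p (0.966). For hsa-miR-449a they were ssc-miR-331-3p (0.978), hsa-miR-4792_L+1R+1_1ss10GT (0.973) and mmu-miR-200b-3p_R+1 (0.952), the last a miR-200 family member that was listed at 0 in all CON and LOS libraries and had a mean of 22.1 in MOS. The length variant ssc-miR-34a_R-4 was closest to ssc-miR-193a-3p (0.928). Among these entries ssc-miR-142-3p belongs to the leukocyte markers, and it averaged 754 in CON, 810 in LOS and 345 in MOS. The other leukocyte markers are given here only as part of their sum.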

How the data were processed

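Total RNA of PGCs was made into 9 TruSeq small-RNA libraries. The authors removed junk and other RNA classes with ACGT101-miR, matched sequences of 18 to 26 nt to miRBase 21.0 with 1 mismatch allowed, and deposited 1 table. Its values are a signal, normalized counts that the authors scaled between libraries by a formula that, like the genome build, was not given in the sources used here. All per-sample columns were used.

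The 757 entries that reached 10 in 3 or more of the 9 libraries were fitted with limma 3.58.1 (R 4.3.3, trend) on log2(value + 1), with group as the only term. Where a group lies near 0 the fold change depends on the added 1. Between 98.3 and 99.9% of values under 400 were whole multiples of a library's step within 0.01, which gave the read estimates. These are upper estimates, since 410 of 683 entries above 0 in every library had only even estimates. The fit was tested on simulated data in which an entry had the same spread in every group and the lowest levels were raised. The MOS libraries were more scattered than the others, so that simulation does not speak to calls under unequal spread or at low counts. Within-library ratios used exact permutation tests in scipy 1.17.1. Every entry matching the family name was named, with predicted arms of the same hairpins, the 5 tested entries most like miR-34a, the 3 most like each other tested member, and up to 4 entries of each p53 list per comparison. Single epithelial markers were named after seeing their values. Members and lists were chosen with earlier results of these data known.

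Alternatives were limma without trend, equal library totals, median-of-ratios factors, 0.5 and 10 as pseudocount, all entries kept, a filter of 50 in place of 10, a fit to only the 6 libraries compared, a replicate block, each library left out, and 1 entry per set of shared values. Chosen after seeing the data were voom on the estimated reads and 1 weight per group. Target prediction was not analysed here.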

Additional observations from a re-analysis of the deposited data

How the results depend on the processing

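In MOS against CON, 4 of 7 sequences were called, and 2 with limma without trend, with equal library totals, with only the 6 libraries of the comparison and with voom on the estimated reads. Leaving out single libraries gave 2 to 5, the 5 without MOS3. mmu-miR-34b-5p and hsa-miR-449a were called in every alternative run, and the counts in LOS against CON (0) and MOS against LOS (4 or 5) were within 1.5 times the reported ones. Small differences that were never called changed sign: ssc-miR-34a in MOS against CON was -0.016 with median-of-ratios factors and -0.069 to 0.080 with single libraries left out, and in MOS against LOS 0.19 with equal totals, 0.19 with voom and -0.14 to 0.013 with single libraries left out. Without CON1 ssc-miR-34a_R-4 in LOS against CON was -0.023 (range -0.023 to 0.58), and without LOS3 hsa-miR-449a was -0.027 (range -0.027 to 0.20). The cause was not tested.

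Same-numbered libraries deviated together with correlations of -0.08 to 0.18, 2 of 9 over 0.1. Other pairs of libraries between groups had -0.25 to 0.14, with 1 of 18 over 0.1. Whether same-numbered libraries share an animal or culture is not stated, and these weak correlations cannot settle it. With a replicate block the counts were 0 in LOS against CON, 3 in MOS against CON and 5 in MOS against LOS, and the log2 ratio of miR-34a to the cluster differed by -0.37, 0.86 and 1.23. All entries called were 200 up and 32 down with equal totals in MOS against CON and 194 and 24 with voom, against 153 and 69, and in MOS against LOS 230 and 44 with equal totals and 224 and 44 with voom, against 143 and 82. Without MOS2, 59 rose and 35 fell in MOS against CON. Including predicted arms gave miR-34a 98.7% of the family, as in the reported mean. Planned count models were not run, since the values are not whole reads. ssc-miR-34a_R-4 gave no value with at least 50 in 3 libraries or with 1 entry per set of shared values. Depth limits the miR-34b arms and hsa-miR-34c-3p, with about 14 to 134 reads a library in MOS.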
